A study of Mus musculus with 6 samples.

Results

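Expression of the genes that make the endothelium's main vasoactive mediators was examined in sorted lung endothelial cells (ECs). The genes chosen by name were Nos3, Edn1, Ece1, Ace, Ptgs1, Ptgs2 and Ptgis, and all probe sets annotated to a single one of these symbols were taken. This gave 10 probe sets of 6 genes, out of 45037 probe sets and 18193 genes tested. Nos3 (1422622_at), Edn1 (1451924_a_at) and Ptgis (1448816_at) had 1 probe set each, Ace (1427034_at, 1451911_a_at) and Ptgs2 (1417262_at, 1417263_at) 2 each, and Ece1 (1455741_a_at, 1434177_at, 1441423_at) 3. Ptgs1 had no probe set of its own in the annotation used and was not analysed here.

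Mice of the immunodeficient NSG strain, 6 to 8 weeks old, all carried lung metastases grown from intravenously injected MDA-MB-231-LM2 cells, a human breast cancer line. They received clodronate-liposomes, which kill phagocytes that take them up, or PBS-liposomes as control on days 14, 16 and 18, and lungs were taken on day 20. RNA of FACS-sorted CD31+ cells, after negative selection for other lineages, was hybridized to Affymetrix mouse arrays, with 3 arrays of clodronate-liposome-treated and 3 of PBS-liposome-treated animals. There was no tumor-free group, and NSG mice lack T, B and natural killer cells while they keep macrophages and neutrophils.

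ECs set vascular tone by releasing short-lived dilators and constrictors. Nos3 encodes endothelial nitric oxide synthase, which makes nitric oxide from arginine. Edn1 encodes the precursor of endothelin-1, a strong constrictor that the membrane protease encoded by Ece1 cleaves to its active form. Ace encodes angiotensin-converting enzyme, which is abundant on lung capillaries, forms angiotensin II and degrades bradykinin. Ptgs2 encodes the inducible cyclooxygenase that starts prostanoid synthesis, and Ptgis encodes prostacyclin synthase, which completes the dilator branch of that pathway.

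Promoter windows were available for 5 of the 7 genes in the RefSeq table of GRCm38.p6, from 250 bases before to 50 after the start site. The windows of Edn1 (chr13:42301226-42301525, plus strand), the gene with the largest difference between treatments, and of Ptgs2 (chr1:150099781-150100080, plus strand), the classical inducible gene of the group, are shown to set these 2 starts side by side. Capitals mark matches, on either strand, to the TATA box (letters TATAAA), the GATA core (letters GATAA), the AP-1 site (letters TGANTCA), the core of the cyclic AMP response element (letters TGACGT) and the E-box (letters CACGTG).
Edn1: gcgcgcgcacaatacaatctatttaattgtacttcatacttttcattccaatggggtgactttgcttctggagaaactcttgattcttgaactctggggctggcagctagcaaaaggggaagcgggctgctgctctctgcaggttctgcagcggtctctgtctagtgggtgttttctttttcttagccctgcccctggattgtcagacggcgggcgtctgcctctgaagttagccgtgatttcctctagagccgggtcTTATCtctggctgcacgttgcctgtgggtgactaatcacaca
Ptgs2: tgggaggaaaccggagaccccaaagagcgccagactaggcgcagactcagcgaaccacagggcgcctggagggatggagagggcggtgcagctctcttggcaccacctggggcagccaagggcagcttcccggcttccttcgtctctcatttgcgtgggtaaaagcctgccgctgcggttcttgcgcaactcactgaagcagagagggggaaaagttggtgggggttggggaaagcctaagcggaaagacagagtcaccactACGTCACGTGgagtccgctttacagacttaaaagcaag
The Edn1 window held 1 match, to the GATA core, starting 8 bases after the start site. The Ptgs2 window held a TGACGT match at 12 and a CACGTG match at 16 bases after the start site, which overlap each other. Among all 32851 windows, the GATA core was present in 25.4%, the TGACGT core in 7.51%, the E-box in 7.15%, the TATA box in 13.6% and the AP-1 site in 7.81%. These matches describe the letters only, and sites that differ from these letters were not searched. Positions count from the RefSeq start, and the starts used in these ECs were not tested.

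The comparison of both groups asked whether mediator genes of metastasis-associated ECs differ once phagocytes are targeted. None of the 10 probe sets passed the threshold (limma, Benjamini-Hochberg adjusted p under 0.05 over all probe sets), where 0.306% of all probe sets passed. The smallest adjusted p was 0.173, for Edn1. At an unadjusted p under 0.05 there were 2, Edn1 and Nos3, against 10.8% of all probe sets. Without clodronate-liposome replicate 2 there were 4, but the count over all 45037 probe sets also rose, from 4864 to 5869. Edn1 and Nos3 also were the genes whose arrays did not overlap between groups, Nos3 lower and Edn1 higher after clodronate-liposomes. Over all probe sets, groups were separated in this way for 8.04% lower and 7.97% higher. Differences of the 10 probe sets had a median of 0.00 and ranged from -0.42 to 0.46, and 5 were below and 5 above zero.

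Nos3 read 9.97, 10.36 and 10.46 on the clodronate-liposome arrays, against 10.69, 10.65 and 10.72 on the PBS-liposome arrays (log2 signal). Every clodronate-liposome array lay below every PBS-liposome array, and the first of them was the lowest. The means were 10.26 ± 0.26 in clodronate-liposome and 10.69 ± 0.034 in PBS-liposome ECs (SD, n = 3 each), a log2 difference of -0.42 (95% interval -0.74 to -0.11), or 1.34-fold lower. This difference did not pass over all probe sets (limma adjusted p = 0.305). With 1 array left out it lay between -0.52 and -0.28, the smaller value without clodronate-liposome replicate 1. Over the alternative settings that kept 2 or 3 arrays in each group the adjusted p ran from 0.2105 to 0.5152.

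Edn1, the endothelin-1 precursor, stood on the other side. It read 13.03, 12.98 and 12.82 on the clodronate-liposome arrays, against 12.37, 12.47 and 12.62 on the PBS-liposome arrays. The lowest clodronate-liposome array stood above the highest PBS-liposome array. The means were 12.94 ± 0.11 in clodronate-liposome and 12.49 ± 0.13 in PBS-liposome ECs (SD, n = 3 each), a log2 difference of 0.46 (95% interval 0.20 to 0.71), or 1.37-fold higher. The limma adjusted p was 0.173, and with 1 array left out the difference stayed between 0.40 and 0.52. Over the alternative settings that kept 2 or 3 arrays in each group its adjusted p ran from 0.0591, with a trended and robust variance, to 0.3672, without PBS-liposome replicate 1.

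**Figure D1:**
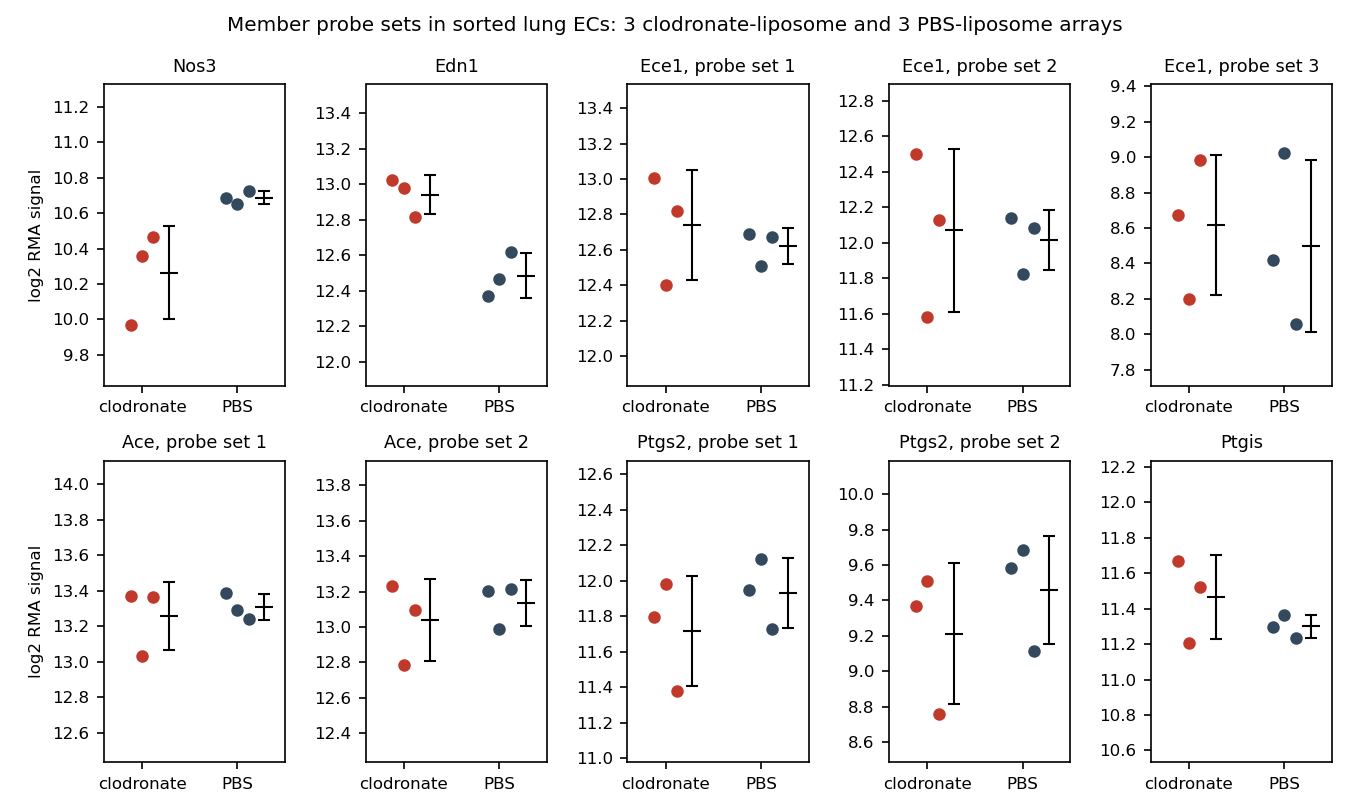
Log2 RMA signal (vertical axes, all spanning the same range of log2 units) of the 10 probe sets on the 3 clodronate-liposome (red) and 3 PBS-liposome (blue) arrays, 1 dot per array, and the mean ± SD in black. Nos3 was lower and Edn1 higher on all clodronate-liposome arrays, while the other 8 probe sets overlapped.

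Because both genes were measured on the same arrays, their ratio is not affected by a shift of all log2 signals of an array. The log2 signal of Edn1 minus that of Nos3 was 3.06, 2.62 and 2.35 on the clodronate-liposome arrays and 1.68, 1.81 and 1.90 on the PBS-liposome arrays. The group means were 2.68 ± 0.36 in clodronate-liposome and 1.80 ± 0.11 in PBS-liposome ECs (SD, n = 3 each), a difference of 0.88. This ratio was formed after both values had been seen and was given no test. It combines the opposite differences of the 2 genes given above and is no further support for them. The size of the ratio itself has no meaning, since signals of different probe sets are not on a common scale.

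Ece1, the protease that activates endothelin, had groups that overlapped in all 3 probe sets. Its brightest probe set read 13.01, 12.40 and 12.82 on the clodronate-liposome arrays, against 12.69, 12.51 and 12.67 on the PBS-liposome arrays. The clodronate-liposome arrays lay on both sides of the PBS-liposome arrays. The log2 difference was 0.12 (95% interval -0.25 to 0.49, limma adjusted p = 0.864), and the other 2 probe sets differed by 0.05 and 0.12. The spread was wider among clodronate-liposome arrays (SD 0.31) than among PBS-liposome arrays (SD 0.10). The difference was -0.02 once clodronate-liposome replicate 1 was left out, and 0.29 once clodronate-liposome replicate 2 was.

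Ace read 13.37, 13.03 and 13.36 on the clodronate-liposome arrays, against 13.38, 13.29 and 13.24 on the PBS-liposome arrays. The groups overlapped, with a log2 difference of -0.05 (95% interval -0.33 to 0.23, limma adjusted p = 0.934). The second probe set differed by -0.10 (95% interval -0.42 to 0.22). For both probe sets of Ace the lowest array of all was clodronate-liposome replicate 2, and without it the main difference was 0.06.

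Ptgs2, the inducible cyclooxygenase, read 11.80, 11.98 and 11.38 on the clodronate-liposome arrays, against 11.95, 12.12 and 11.73 on the PBS-liposome arrays. The groups overlapped. The log2 difference was -0.21 (95% interval -0.62 to 0.19, limma adjusted p = 0.740), and the dimmer probe set gave -0.25 (95% interval -0.76 to 0.27). In both groups and by both probe sets the array with replicate number 2 was the highest and that with number 3 the lowest, although the labels do not say that equal numbers were processed together.

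Ptgis, prostacyclin synthase, read 11.67, 11.20 and 11.52 on the clodronate-liposome arrays, against 11.30, 11.37 and 11.24 on the PBS-liposome arrays. Here 2 of the clodronate-liposome arrays lay above and 1 below all PBS-liposome arrays. The log2 difference was 0.17 (95% interval -0.14 to 0.47, limma adjusted p = 0.735). Without clodronate-liposome replicate 2 it was 0.30, and without clodronate-liposome replicate 1 it was 0.06.

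Ece1, Ace and Ptgis thus shared their low array, clodronate-liposome replicate 2. The 12 pan-endothelial markers, among them Pecam1 and Cdh5, averaged 13.24, 13.04 and 13.15 on the clodronate-liposome arrays and 13.10, 13.06 and 13.13 on the PBS-liposome arrays, so that the same array was low in them too. The array controls that detect 18S ribosomal RNA averaged 13.02, 12.33 and 13.00 on the clodronate-liposome arrays against 12.63, 12.39 and 12.56 on the PBS-liposome arrays. Their part in the spread of the 3 genes was not tested. Across the 6 arrays Pearson's r was 0.85 for Ece1 with Ptgis, 0.76 for Ece1 with Ace and -0.85 for Edn1 with Nos3, values that describe arrays sharing the 2 treatments and their processing.

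**Figure D2:**
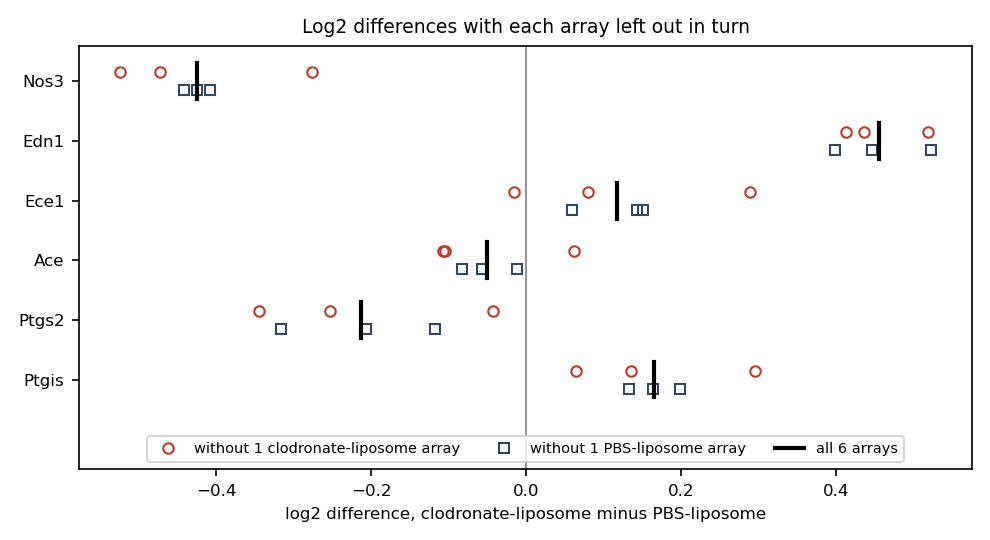
Log2 difference, clodronate-liposome minus PBS-liposome (horizontal axis), of the brightest probe set of each gene with all 6 arrays (black bar) and with each array left out in turn (red circles, a clodronate-liposome array; blue squares, a PBS-liposome array). Nos3 ranged from -0.52 to -0.28 and Edn1 from 0.40 to 0.52, while Ece1 and Ace had values on both sides of zero.

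Genes that act with these enzymes were followed as 4 lists of 65 genes, of which 60 were measured. None passed the threshold over all probe sets, where 0.434% of all genes passed by their brightest probe set. At an unadjusted p under 0.05 there were 11 of the 60, against 10% of all genes. Groups did not overlap for 8 genes that were lower and 6 that were higher after clodronate-liposomes, against 8.75% and 7.49% of all genes. The median log2 difference was -0.06 for the 60 genes and 0.00 for all genes.

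For nitric oxide, the 25 measured genes of cofactor, substrate and downstream signaling had a median difference of 0.00. Gch1, whose enzyme makes the first step towards tetrahydrobiopterin, the cofactor of nitric oxide synthases, read 10.26, 10.72 and 10.76 on the clodronate-liposome arrays, against 11.47, 11.14 and 11.15 on the PBS-liposome arrays. All clodronate-liposome arrays lay below all PBS-liposome arrays. The log2 difference was -0.67 (SE 0.16, limma adjusted p = 0.173) and that of a second probe set -0.28, again without overlap.

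Slc7a1, a transporter that brings arginine into the cell, stood on the opposite side. It read 11.40, 11.88 and 11.72 on the clodronate-liposome arrays, against 10.89, 10.99 and 11.25 on the PBS-liposome arrays. Its log2 difference was 0.62 (SE 0.15, limma adjusted p = 0.175), and the other 2 probe sets gave 0.52 and 0.69, all without overlap. Slc7a1 also serves arginine uptake for purposes other than nitric oxide.

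Nos2, the inducible synthase typical of activated macrophages, read 8.83, 9.02 and 8.70 on the clodronate-liposome arrays, against 8.75, 8.79 and 8.92 on the PBS-liposome arrays. The groups overlapped, with a log2 difference of 0.03 (95% interval -0.23 to 0.30). The neuronal synthase Nos1 differed by 0.00, Arg2, an arginase that competes for arginine, by -0.02 (SE 0.43), and Ddah1 and Ddah2, which clear endogenous inhibitors of the synthases, by -0.03 and 0.01. Dimmer probe sets of Nos1 differed by 0.11, -0.15 and -0.17, and those of Ddah1 by 0.18, 0.01, -0.09 and 0.15. Only the -0.17 of Nos1 and the 0.18 of Ddah1 were without overlap (limma adjusted p = 0.567 and 0.575). Mean signals of Nos1 (8.23) and Arg2 (8.27) lay close to the median of all probe sets (8.12). Cav1, whose protein binds and restrains endothelial nitric oxide synthase, differed by 0.15 without overlap (limma adjusted p = 0.618).

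Of the other endothelin genes 6 were measured, with a median of -0.21. Ednrb encodes the endothelin B receptor, through which ECs clear endothelin and release nitric oxide. Its brightest probe set read 12.32, 12.19 and 12.28 on the clodronate-liposome arrays, against 12.62, 12.49 and 12.43 on the PBS-liposome arrays. The log2 difference was -0.25 (SE 0.098, limma adjusted p = 0.412). The dimmer probe sets of Ednrb differed by -0.65 (limma adjusted p = 0.249) and -0.60 (limma adjusted p = 0.132), and in all 3 the clodronate-liposome arrays lay below the PBS-liposome arrays. Mme, a peptidase that degrades endothelin and other peptides, differed by -0.58 with overlap (SE 0.30, limma adjusted p = 0.546). The second probe set of Mme differed by only -0.17, also with overlap (limma adjusted p = 0.863).

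Among 9 measured genes of the renin-angiotensin and kinin systems the median was -0.07. Bdkrb2, the constitutive receptor for bradykinin, the peptide that ACE degrades, read 9.37, 9.90 and 9.82 on the clodronate-liposome arrays, against 10.47, 10.24 and 10.21 on the PBS-liposome arrays. The groups were separate, with a log2 difference of -0.61 (SE 0.16, limma adjusted p = 0.196), and the second probe set gave -0.66, also without overlap. Agtr1a, an angiotensin II receptor, differed by 0.21 (SE 0.19), at a mean signal of 7.39, below the median of all probe sets (8.12).

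The 20 measured prostanoid genes had a median of -0.12, with 15 below and 5 above zero, where 9268 of all 18193 genes were below zero. Groups did not overlap for 2 of the 20 that were lower and 2 that were higher, against 8.75% and 7.49% of all genes. Pla2g4a, the phospholipase that frees arachidonic acid for cyclooxygenases, read 9.84, 10.02 and 9.66 on the clodronate-liposome arrays, against 10.15, 10.19 and 10.17 on the PBS-liposome arrays. Its groups did not overlap, and the log2 difference was -0.33 (SE 0.11, limma adjusted p = 0.325). Ptges, a prostaglandin E synthase, differed by -0.36 (limma adjusted p = 0.542), and its dimmer probe sets by -0.17 and -0.30. Ptgds, a prostaglandin D synthase, differed by 0.27 (limma adjusted p = 0.404), but its second probe set by 0.00. The mean signal of its brighter probe set, 7.77, lay below the median of all probe sets (8.12).

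Tbxas1, thromboxane synthase, differed by -0.11 and Ptgir, the prostacyclin receptor, by -0.02. The mean signal of Ptgir, 7.16, lay below the median of all probe sets (8.12), so it could not be separated from background. Hpgd, the enzyme that inactivates prostaglandins and is abundant in lung, differed by 0.00 (95% interval -0.21 to 0.21). Its signal was among the highest on the arrays, at 14.25, 14.25 and 14.13 on the clodronate-liposome arrays and 14.25, 14.20 and 14.20 on the PBS-liposome arrays, with equal values on several arrays. So close to the top of the range a difference may not show. The second probe set of Hpgd differed by 0.10 with overlap (limma adjusted p = 0.799).

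**Figure D3:**
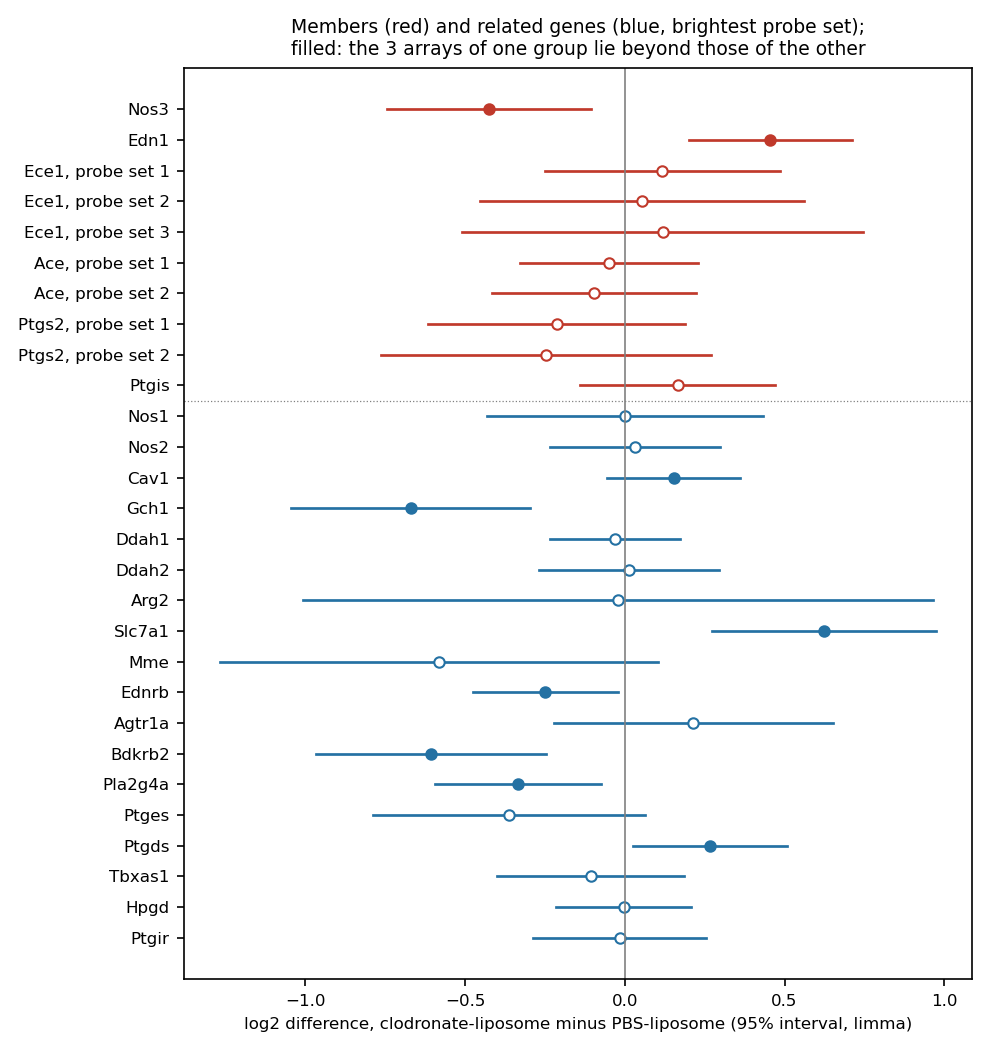
Log2 difference, clodronate-liposome minus PBS-liposome, with its 95% interval from limma (horizontal axis) for the 10 probe sets of the synthesis genes (red) and the brightest probe set of 18 related genes (blue). Filled dots mark genes whose groups did not overlap, and the intervals of Nos3, Gch1, Ednrb, Bdkrb2 and Pla2g4a lay below zero and those of Edn1, Slc7a1 and Ptgds above it, without adjustment for the number of tests.

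**Figure D4:**
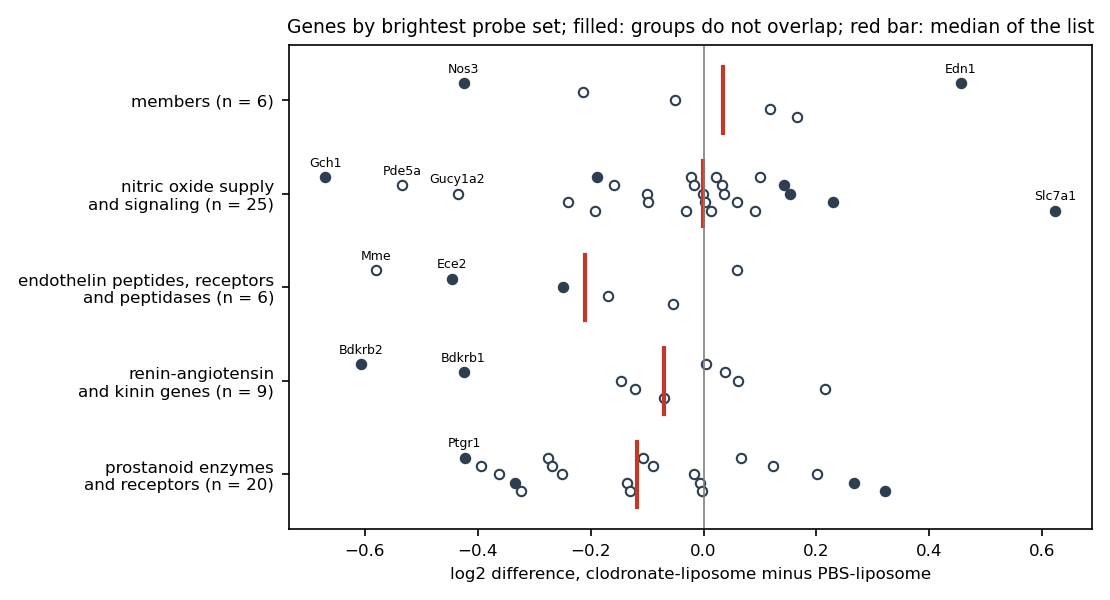
Log2 difference, clodronate-liposome minus PBS-liposome (horizontal axis), of each measured gene by its brightest probe set, in rows for the 6 synthesis genes and the 4 lists of related genes. Filled dots mark genes whose groups did not overlap and red bars the median, which was -0.21 for the other endothelin genes and -0.12 for the prostanoid genes.

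None of the macrophage, pan-leukocyte, platelet, mural and fibroblast or epithelial markers passed the threshold. The 5 pan-leukocyte markers averaged 7.60 to 7.89 on clodronate-liposome arrays and 7.97 to 8.38 on PBS-liposome arrays, and 15 macrophage markers 8.47 to 8.73 and 8.71 to 9.10, with 12 of the 15 lower in their mean after clodronate-liposomes. Among the 15, 6 had groups that did not overlap, all lower, against 8.75% of all genes that were lower in this way. The ranges of the macrophage list overlapped between groups, while those of the pan-leukocyte list did not. Cybb differed by -1.06 (limma adjusted p = 0.0871) and Adgre1, the F4/80 antigen, by -0.17. Mural and fibroblast markers (11 genes) averaged 9.76 to 10.02 on clodronate-liposome arrays and 10.01 to 10.04 on PBS-liposome arrays, platelet markers (5 genes) 8.60 to 9.18 and 8.99 to 9.19, and epithelial markers (5 genes) 8.26 to 8.57 and 8.34 to 8.74, with overlap in each list. The sort left out cells positive for CD45 or CD11b, a gate that removes macrophages. Genes such as Gch1, Pla2g4a, Ptges and Ptgs2 are also expressed by macrophages, and the part of these cells in the values above was not tested. In such bulk samples fewer cells of a type cannot be told apart from less RNA per cell.

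Subtypes of ECs carry these genes to different degrees. The 5 venous markers averaged 11.12 to 11.28 on clodronate-liposome arrays and 11.73 to 11.82 on PBS-liposome arrays, the 6 arterial markers 12.60 to 12.69 and 12.72 to 12.74, and neither list overlapped. Among the 6 arterial markers, 2 had groups that did not overlap, both lower, against 8.75% of all genes. By their means 4 of the arterial markers were lower and 2 higher, and 0 had an unadjusted p under 0.05 (limma). The venous markers Ackr1 and Selp fell after clodronate-liposomes, with log2 differences of -1.36 (limma adjusted p = 0.0144) and -1.03 (limma adjusted p = 0.0428). The other venous markers did not pass: Nr2f2 differed by -0.21 and Slc6a2 by -0.39, and Vwf by 0.05, so the separation of the venous mean rested mostly on Ackr1 and Selp. The aerocyte markers, which include Ednrb, averaged 11.95 to 12.15 on clodronate-liposome arrays and 11.90 to 12.04 on PBS-liposome arrays, and the general capillary markers 12.79 to 13.07 and 12.88 to 12.99. The aerocyte mean joined opposite differences, of -0.25 for Ednrb and 0.40 for Apln, both without overlap and neither past the threshold. Of all genes, 8.75% were lower and 7.49% higher without overlap. Car4, Tbx2 and Fibin differed by 0.06, 0.03 and 0.14 with overlap. Whether the makeup of the sorted ECs had a part in the values of Nos3, Edn1 or Ednrb was not tested.

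The genes whose signals followed each synthesis gene most closely over the 6 arrays, among 10918 genes brighter than the array median, were given by Pearson's r. They were Mylk and H2-K1 for Nos3 (both 0.996), Gramd3 (0.998) and Pcca (0.994) for Edn1, and Dyrk1b (0.997) and Aplp2 (0.996) for Ece1. For Ace they were Gpank1 (0.989) and Nckap1 (0.986), for Ptgs2 Imp3 (0.989) and Aars2 (0.979), and for Ptgis Sgk3 (0.991) and Arl2bp (0.986). With 6 points and this many genes, such values of r arise readily and are given as a description.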

How the data were processed

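Gene expression in sorted lung ECs was measured on Affymetrix Mouse Genome arrays, 1 array per sample, with 3 clodronate-liposome and 3 PBS-liposome arrays grouped by their labels. Values in the deposited table are log2 signals: the authors ran robust multiarray average normalization on the raw array files, which removes background, gives all arrays the same distribution and merges the probes of each set. These were used as deposited (array medians 8.13), without detection calls, so low signals could not be separated from background. After 64 control probe sets were set aside, 45037 were tested. Symbols came from the platform annotation (34945 with 1 symbol, 932 with several, 9160 without), and a RefSeq gene table changed 0 of them. A gene was represented by its brightest probe set.

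For each probe set limma (version 3.58.1, under R 4.3.3) fitted the difference of clodronate-liposome from PBS-liposome arrays without covariates, by lmFit and eBayes with two-sided p-values, after the empirical Bayes test that the methods name, and with Benjamini-Hochberg adjustment over all probe sets. The steps were tested on simulated data. The number of arrays limits the precision, and the labels call the arrays biological replicates without saying how many mice each holds, so p-values measure the spread between these samples. Related genes were named where they passed the threshold or separated the groups with a difference above 0.5, plus a set of key enzymes and receptors. The genes and lists were chosen with earlier results of these data known. Alternatives covered a filter on dim probe sets, normalization, the replicate number as a block, the variance model, array weights, the choice of probe set and leaving out each array.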

Additional observations from a re-analysis of the deposited data

How the results depend on the processing

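None of the 10 probe sets of the synthesis genes passed the threshold under any setting run. Direction was kept throughout by 2 of the 6 synthesis genes, Nos3 and Edn1, and by 11 of the 18 related genes. The 11 were Gch1, Slc7a1, Ednrb, Bdkrb2, Cav1, Mme, Ptges, Ptgds, Tbxas1, Pla2g4a and Agtr1a. Over all probe sets, the 138 past the threshold became 244 without probe sets dimmer than the median, 248 with a trended and robust variance, 234 with array weights, 0 with the replicate number as a block (5033 at unadjusted p under 0.05), and 6 (without PBS-liposome replicate 2) to 73 (without clodronate-liposome replicate 2) with 1 array left out, where the other arrays gave 15, 16, 23 and 33. When clodronate-liposome replicate 2 stood alone for its group, a setting chosen after seeing the data, 0 passed (3964 at unadjusted p under 0.05). There the spread came from the 3 PBS-liposome arrays, the lone array was assumed to vary like them, and the adjusted p was 0.5655 for Nos3 and 0.5035 for Edn1, so this setting says nothing of how stable a call is. Same-numbered arrays correlated by 0.0751, 0.0699 and 0.0361 in their deviations from the group means, so the numbers were not taken as pairs, although each array correlated best with its own number. Under the block, which fits more terms to the same arrays, the calls of Ackr1 and Selp were lost with the rest. The smallest adjusted p of all probe sets was then 0.0507 (limma), which just missed the threshold. Under the block the adjusted p was 0.320 for Nos3 and 0.281 for Edn1 (limma).

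Differences that did not pass crossed zero as follows. With 1 array left out, Ece1 ranged from -0.0154 to 0.289, Ace from -0.108 to 0.0613, Nos2 from -0.0544 to 0.110, Nos1 from -0.201 to 0.160, Ddah2 from -0.0717 to 0.0989, Arg2 from -0.434 to 0.278, Ptgir from -0.0921 to 0.0749 and Hpgd from -0.02298 to 0.03695. With array weights, Ace gave 0.00588 and Nos2 -0.0376. With clodronate-liposome replicate 2 alone in its group, Ece1 gave -0.225, Ptgs2 0.0487, Ptgis -0.0957, Nos1 0.402, Ddah2 -0.156, Arg2 0.8015, Ptgir 0.01435 and Hpgd 0.03695. With the most variable probe set, Ddah1 gave 0.178 and Hpgd 0.0972, and with the mean of a gene's probe sets Ddah1 gave 0.0437 and Hpgd 0.0471. The causes were not tested.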
